A study of Homo sapiens with 10 samples.

Results

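The HSP70 and HSP110 chaperones examined here were the genes HSPA1A, HSPA1B, HSPA6, HSPA8, HSPA2, HSPA4, HSPA4L, HSPA13, HSPA14 and HSPH1. They were taken by gene symbol from a table of counts for 28380 genes, in which the 10 symbols held 11 rows because HSPA14 labelled 2 of them. All 11 rows passed the filter on low counts, together with 13378 genes in all. HSPA6 passed only through its SFN libraries, as its DMSO counts of 7 to 18 per library were too low. It is part of the counts of rows below. The counts came from RPE-1 cells, an established, immortalized human cell line from the retinal pigment epithelium, treated for 4 h with 25 µM sulforaphane (SFN), an isothiocyanate, or with its vehicle DMSO. Each group held 5 replicates of 50000 cells, grown in complete medium with 1 g/L glucose. The comparison asks how SFN altered the mRNA levels of these chaperones.

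HSP70 proteins bind exposed hydrophobic stretches of unfolded or newly made proteins in a cycle of ATP binding and hydrolysis. J-domain proteins deliver clients and trigger hydrolysis, and nucleotide exchange factors, among them the HSP110 proteins HSPH1, HSPA4 and HSPA4L, release ADP so that the client is let go. Some members, such as HSPA8, are made constitutively in most cells, whereas HSPA1A, HSPA1B and HSPA6 are the classical heat-inducible members, transcribed through heat shock factor 1 (HSF1), which binds inverted repeats of GAA in their promoters.

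SFN raised 8 of the 11 rows by the quasi-likelihood test of edgeR, with p-values adjusted by Benjamini and Hochberg over the 13378 genes, of which 1214 (9.07%) were higher in SFN and 23.0% differed in either direction. None of the 11 was called lower by edgeR, against 13.9% of all genes, although HSPA2 was lower at an unadjusted p of 0.048. DESeq2 and limma-voom on quantile normalized values also called none lower, and limma-voom with sample quality weights, under which 30.2% of all genes were lower, called 1. The median log2 fold change of the 11 rows was 0.77, and that of all genes tested was -0.03. In 7 rows every SFN library lay above every DMSO library, which was the case for 8.78% of all genes, and 0 rows lay wholly below, against 11.1% (19.9% in either direction). The inducible members HSPA6, HSPA1B and HSPA1A had the largest increases of these 11 rows, from 14.4-fold to 77.8-fold, while HSPH1 rose 3.86-fold and the constitutive HSPA8 1.65-fold. HSPA1A, HSPA1B, HSPA6 and HSPH1 were also the only members with a log2 fold change above 1, the limit used for differentially expressed genes (DEGs), which 2.94% of all genes passed upwards and 5.76% downwards.

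**Figure D1:**
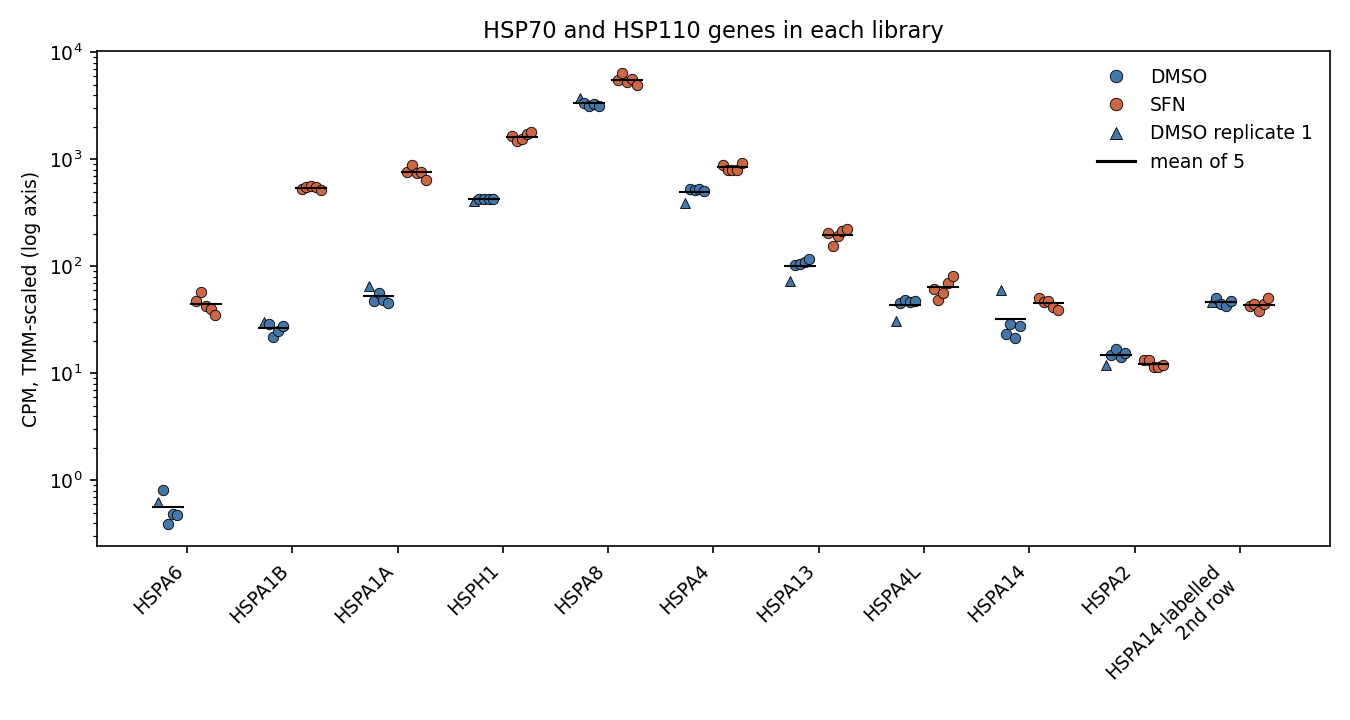
CPM, counts scaled to a common library size (log axis), of the 11 rows in each of the 10 libraries, with DMSO in blue, SFN in orange, DMSO replicate 1 as a triangle and the mean of 5 as a bar. The groups are separate for the 7 rows HSPA6, HSPA1B, HSPA1A, HSPH1, HSPA8, HSPA4 and HSPA13, and overlap for HSPA4L, HSPA2 and both rows labelled HSPA14.

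Total counts per library ranged from 15689294 to 20666692 in DMSO and from 12375860 to 17308706 in SFN. DMSO replicate 1 stood apart, with a mean Spearman correlation across genes of 0.935 with the other DMSO libraries, which had 0.979 to 0.982 with their own group. Its log2 CPM, relative to the mean of its group, fell by 0.31 per doubling of the canonical transcript length. The other DMSO libraries had slopes from 0.045 to 0.11, and those of SFN lay between -0.14 in replicate 2 and 0.15 in replicate 5. Calls of members and of named partners that changed without this library are given both ways. The defining pigment epithelium markers RPE65, RLBP1 and TYRP1 had at most 4 counts in any library, while BEST1, a chloride channel of this epithelium, was at 18.8 ± 13.7 CPM in DMSO and 42.4 ± 36.7 CPM in SFN (not called by edgeR, adjusted p = 0.16, and higher without DMSO replicate 1, adjusted p = 0.0096). MITF and OTX2, transcription factors of this lineage, were lower in SFN, MITF from 50.8 to 23.4 CPM (log2 fold change -1.12, adjusted p = 5.3e-05 by edgeR) and OTX2 from 14.04 to 9.01 CPM (-0.64, adjusted p = 0.0029). PMEL, also on the marker list, had 7 to 29 counts per library, and TYR had no row. The epithelial keratins KRT8 and KRT18 were at 383 ± 85.8 and 196 ± 27.6 CPM in DMSO. In SFN they were at 449 ± 71.5 and 236 ± 53.7 CPM (not called by edgeR, adjusted p = 0.37 and 0.27). Without DMSO replicate 1, KRT8 was higher (adjusted p = 0.016 by edgeR). The summed CPM of 3 immune markers was at most 1.21 and that of 3 endothelial markers at most 0.56 in any library. CPM are shares of a library, so less RNA from other genes and more RNA from a chaperone gene cannot be told apart.

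HSPA1A and HSPA1B encode nearly the same stress-inducible cytosolic HSP70 protein from single exons on chromosome 6, HSPA1A at chr6:31815543-31817946 and HSPA1B at chr6:31827738-31830254, both on the plus strand (GRCh38, GENCODE 44). The regions before the start sites are shown because both copies rose together. They are the 250 bases upstream of the RefSeq start (GRCh38.p14), chr6:31815293-31815542 for HSPA1A and chr6:31827488-31827737 for HSPA1B, and aligned with 93.6% identity. Capitals mark matches to GAANNTTC or TTCNNGAA, the inverted repeats of GAA that HSF1 binds, each of which reads the same on both strands.
HSPA1A: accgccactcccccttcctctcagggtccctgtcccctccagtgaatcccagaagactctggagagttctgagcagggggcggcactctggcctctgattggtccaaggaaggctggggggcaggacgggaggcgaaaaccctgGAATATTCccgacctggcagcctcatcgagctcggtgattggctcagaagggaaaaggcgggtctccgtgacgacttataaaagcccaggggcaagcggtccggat
HSPA1B: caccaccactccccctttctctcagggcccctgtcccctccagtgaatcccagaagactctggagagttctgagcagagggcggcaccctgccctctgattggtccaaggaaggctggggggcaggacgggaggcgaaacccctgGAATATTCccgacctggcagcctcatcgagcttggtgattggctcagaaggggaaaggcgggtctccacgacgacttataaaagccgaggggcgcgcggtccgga
Each held 1 match, GAATATTC, at bases 106 to 99 before the start in HSPA1A and 105 to 98 in HSPA1B. Such a match is a description of the letters, not of binding, and 11.6% of the 35116 promoter entries in the RefSeq table held at least 1 in the same window.

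HSPA1A was at 65.3, 47.2, 56.7, 48.9 and 45.4 CPM in DMSO replicates 1 to 5 and at 756, 879, 742, 767 and 638 CPM in the SFN replicates. The lowest SFN library was far above the highest DMSO library, and DMSO replicate 1 was the highest of its group. SFN increased HSPA1A 14.4-fold, from 52.7 ± 8.25 to 756 ± 85.9 CPM (SD, n = 5 each), with a log2 fold change of 3.84 (SE 0.15, adjusted p = 2.4e-08 by edgeR). HSPA1B was at 30.5, 29.0, 21.9, 25.1 and 27.6 CPM in DMSO and at 531, 554, 566, 549 and 512 CPM in SFN. The SFN libraries were closely spaced and none approached the DMSO range. Its increase was 20.2-fold, from 26.8 ± 3.38 to 543 ± 21.1 CPM, with a log2 fold change of 4.34 (SE 0.12, adjusted p = 4.3e-09 by edgeR).

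Because the copies share sequence, the division of reads between them is uncertain. Of the 50-base stretches of the canonical HSPA1A transcript, 75.1% also occurred elsewhere, chiefly in HSPA1B, but in the last 500 bases, where 3′ libraries collect reads, 22.2% did so, and for HSPA1B 1.33%. Their counts were therefore also added up. The sum was 1537, 1672, 1407, 1227 and 1234 counts in the DMSO libraries and 21592, 16620, 17564, 19506 and 16289 counts in the SFN libraries, with no overlap. It rose 16.3-fold (log2 fold change 4.03, SE 0.13, adjusted p = 1.3e-08 by edgeR), from 79.5 ± 9.32 to 1299 ± 101 CPM. The log2 ratio of HSPA1A to HSPA1B fell from 0.97 ± 0.28 to 0.47 ± 0.13, with every SFN library below every DMSO library (exact two-sided permutation test over the 10 libraries, p = 0.0079, the smallest that this design allows, and 0.0095 after adjustment over the 6 pairs of members tested). HSPA1B thus had the larger relative increase, by 1.41-fold, in these counts, and how shared reads were assigned was not tested.

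HSPA6, also called HSP70B′, is a strictly stress-inducible HSP70 that lies in 1 exon at chr1:161524540-161526894 on the plus strand. Its upstream region, chr1:161524290-161524539, is shown because it rose most.
HSPA6: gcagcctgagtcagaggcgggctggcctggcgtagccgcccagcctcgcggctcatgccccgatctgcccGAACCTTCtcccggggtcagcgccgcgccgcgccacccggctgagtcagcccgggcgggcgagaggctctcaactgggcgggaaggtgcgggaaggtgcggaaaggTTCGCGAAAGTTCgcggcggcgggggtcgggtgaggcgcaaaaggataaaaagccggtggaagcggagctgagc
It held GAACCTTC at bases 180 to 173 before the start and an unbroken run of 3 GAA units, TTCGCGAAAGTTC, at bases 74 to 62, made of 2 overlapping matches. A run of 3 units was present in 155 of the 35116 entries (0.441%). HSPA6 was low in DMSO, with 0.623, 0.82, 0.391, 0.482 and 0.474 CPM, or 7 to 18 counts per library. In SFN it was at 47.1, 57.5, 43.04, 40.2 and 35.1 CPM, or 497 to 791 counts. No SFN library came near the DMSO libraries, and the low counts in DMSO limit the precision of the fold. The row was kept by the low-count filter only through the SFN libraries, where it is high. HSPA6 rose 77.8-fold, from 0.558 ± 0.169 to 44.6 ± 8.46 CPM (log2 fold change 6.28, SE 0.22, adjusted p = 2.4e-08 by edgeR). Against the HSPA1A and HSPA1B sum its log2 ratio was 2.24 higher in SFN than in DMSO, a 4.73-fold larger increase (exact two-sided permutation p = 0.0079, adjusted p = 0.0095). With 5 counts added in place of 0.5 the difference was 1.71, and against HSPA1B alone 1.93. HSPA7, annotated as a pseudogene, was the gene with which HSPA6 shared 45.8% of its 50-base stretches and 19.3% of those in its last 500 bases, and it had 0 counts in the DMSO libraries and 5 in all SFN libraries together.

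HSPA8, also called HSC70, is the constitutive cytosolic HSP70 that also serves clathrin uncoating and chaperone-mediated autophagy. It lies on the minus strand at chr11:123057489-123063230 with 9 exons in its canonical transcript. The region chr11:123062137-123062386, upstream of its RefSeq start, is shown because it carries the repeats. Whether they bear on the size of a rise was not tested.
HSPA8: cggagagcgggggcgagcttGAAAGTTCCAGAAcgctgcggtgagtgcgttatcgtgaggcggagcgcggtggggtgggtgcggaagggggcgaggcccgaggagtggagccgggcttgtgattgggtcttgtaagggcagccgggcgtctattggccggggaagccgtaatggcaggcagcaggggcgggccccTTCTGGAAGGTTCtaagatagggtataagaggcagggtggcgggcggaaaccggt
It held 2 runs of 3 GAA units, GAAAGTTCCAGAA at bases 230 to 218 and TTCTGGAAGGTTC at bases 55 to 43 before the start. HSPA8 was at 3746, 3396, 3183, 3312 and 3181 CPM in DMSO and at 5565, 6388, 5280, 5614 and 4912 CPM in SFN. The groups did not overlap, but as a ratio the highest DMSO library, replicate 1, was closer to the lowest SFN library than for the inducible members. The increase was 1.65-fold, from 3364 ± 233 to 5552 ± 545 CPM (log2 fold change 0.72, SE 0.11, adjusted p = 6.2e-04 by edgeR). Under limma-voom on quantile normalized values it was 0.40 and no longer passed the threshold (adjusted p = 0.079). Quantile normalization with limma is what the paper's methods name, though their model also had a repeated-measures term that this fit lacked. The 11 rows of HSPA8 pseudogenes in the table summed to at most 97 counts in a library, at most 0.125% of the HSPA8 count. The HSPA8 to HSPA1A and HSPA1B ratio fell by 3.31 on the log2 scale, or 9.94-fold (exact two-sided permutation p = 0.0079, adjusted p = 0.0095).

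The HSP110 proteins are larger relatives of HSP70 that act as its nucleotide exchange factors and hold unfolded proteins in solution. HSPH1, also called HSP105 and itself heat-inducible, lies on the minus strand at chr13:31134973-31162388 with 18 exons. It was at 410, 430, 429, 431 and 422 CPM in DMSO and at 1641, 1475, 1558, 1716 and 1799 CPM in SFN. The DMSO libraries were nearly equal, replicate 1 included, and all SFN libraries were above them. HSPH1 rose 3.86-fold, from 424 ± 8.82 to 1638 ± 128 CPM (log2 fold change 1.95, SE 0.10, adjusted p = 2.7e-07 by edgeR). None of the GAA repeats searched for occurred in its 250 upstream bases or in those of HSPA4, HSPA13 and HSPA2, which says only that these letters are not in those windows. HSPA4L held 1 match, TTCTCGAA at bases 170 to 163, in 1 of its 3 promoter entries.

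HSPA4 (chr5:133052013-133106449, plus strand), also called APG-2, is the constitutive HSP110. It was at 393, 526, 516, 526 and 507 CPM in DMSO and at 886, 792, 791, 803 and 934 CPM in SFN. The groups were separate and DMSO replicate 1 was well below the rest of its group. The increase was 1.70-fold (494 ± 56.9 to 841 ± 65.2 CPM, log2 fold change 0.77, SE 0.11, adjusted p = 5.3e-04 by edgeR), and the log2 fold change was 0.69 without DMSO replicate 1. HSPH1 therefore rose more than either HSPA4 or HSPA8. Its log2 ratio to HSPA4 went from -0.21 ± 0.15 in DMSO to 0.96 ± 0.084 in SFN, and its ratio to HSPA8 rose by 1.23 (exact two-sided permutation p = 0.0079 and adjusted p = 0.0095 for both).

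HSPA4L (chr4:127781821-127840733, plus strand), also called APG-1, had the smallest increase among the members called higher. It was at 31.0, 45.2, 48.8, 46.2 and 47.8 CPM in DMSO and at 61.5, 48.6, 56.6, 69.5 and 81.8 CPM in SFN. The lowest SFN library, replicate 2, lay just under the highest DMSO library, so the groups overlapped. The log2 fold change was 0.54 (SE 0.16, adjusted p = 0.035 by edgeR), from 43.8 ± 7.31 to 63.6 ± 12.7 CPM. This call was lost when libraries were scaled by size alone, without the low-count filter, and when any of DMSO replicates 2, 4 or 5 or SFN replicates 1, 4 or 5 was left out, with log2 fold changes between 0.43 and 0.57. The change in the ratio of HSPA4L to HSPA4 was -0.24, with overlapping groups (exact two-sided permutation p = 0.079, adjusted p = 0.079). With 1 library left out, it passed 0.05 only without SFN replicate 4 (-0.29) or SFN replicate 5 (-0.30). The exact two-sided permutation p was 0.048 for both, before adjustment.

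**Figure D2:**
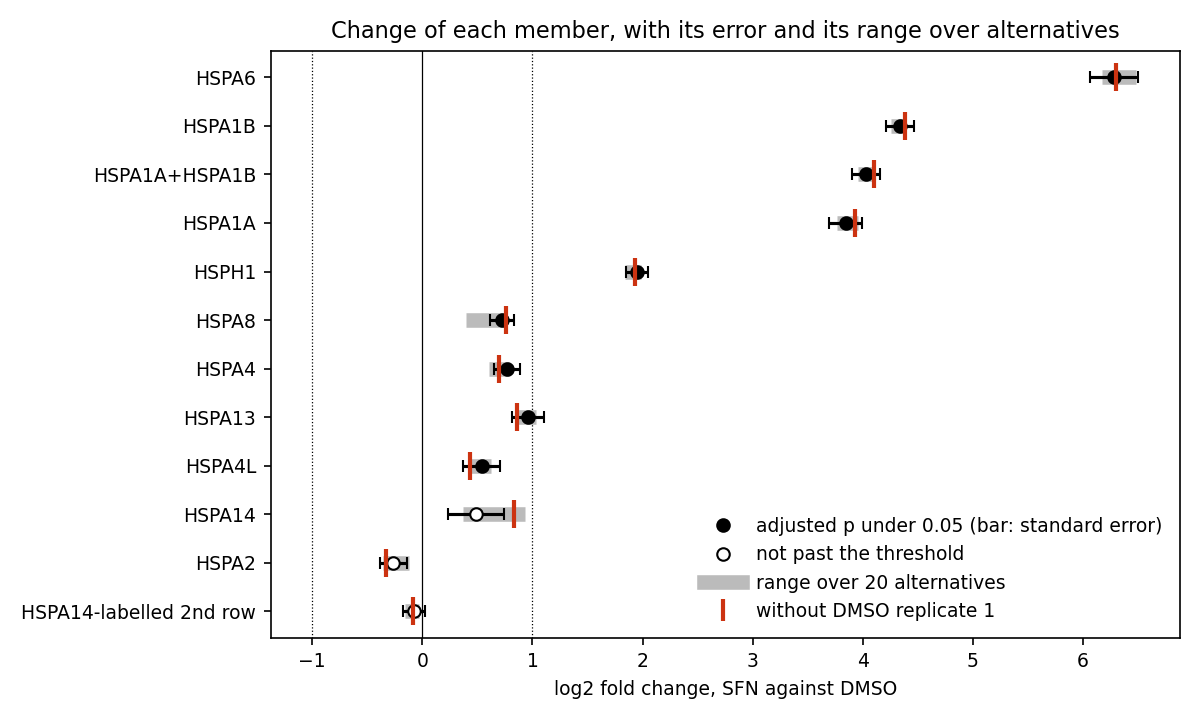
Log2 fold change of SFN against DMSO for each member (points, filled where the adjusted p by edgeR was under 0.05), with the standard error as a black bar, the range over 20 alternative analyses in grey and the value without DMSO replicate 1 in red. HSPA6, HSPA1B, HSPA1A and HSPH1 lie beyond the dotted line at 1, and the value of HSPA14 moves from 0.49 to 0.83 without DMSO replicate 1.

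HSPA13, also called STCH, is an HSP70-like ATPase of the microsomal compartment that lacks the usual client-binding domain (chr21:14371115-14383484, minus strand, 5 exons). It was at 73.2, 104, 106, 109 and 116 CPM in DMSO and at 205, 157, 192, 212 and 222 CPM in SFN. Every SFN library was above every DMSO library, with DMSO replicate 1 and SFN replicate 2 the lowest of their groups. HSPA13 rose 1.94-fold (102 ± 16.6 to 198 ± 25.2 CPM, log2 fold change 0.96, SE 0.14, adjusted p = 5.2e-04 by edgeR), and the log2 fold change was 0.86 without DMSO replicate 1.

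HSPA14 is the HSP70 of the ribosome-associated complex, where it pairs with the J-domain protein DNAJC2. The row with its own identifier (ENSG00000187522, chr10:14838306-14871741, plus strand) was at 60.3, 23.4, 28.8, 21.6 and 27.8 CPM in DMSO and at 50.8, 46.6, 47.8, 41.8 and 39.3 CPM in SFN. DMSO replicate 1 was above all SFN libraries, and the other DMSO libraries were all below them. With all libraries the log2 fold change was 0.49 (SE 0.25, adjusted p = 0.20 by edgeR), and without DMSO replicate 1 it was 0.83 (adjusted p = 6.1e-05). The second row labelled HSPA14 (ENSG00000284024, chr10:14838302-14846999) is named MSANTD7 in GENCODE 44 and overlaps HSPA14 on the same strand. It was at 38.5 to 50.3 CPM in SFN and 43.1 to 50.3 CPM in DMSO, with a log2 fold change of -0.08 (SE 0.10, adjusted p = 0.65 by edgeR), and is not counted as HSPA14 in what is said of single genes.

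HSPA2, a single-exon HSP70 best known from spermatogenesis (chr14:64535905-64546173, plus strand), was, apart from the second row labelled HSPA14, the only row with a lower mean in SFN. It was at 12.02, 14.99, 16.8, 14.2 and 15.6 CPM in DMSO and at 13.2, 13.4, 11.4, 11.4 and 11.9 CPM in SFN. The groups overlapped through DMSO replicate 1, which was the lowest of its group. With all libraries the log2 fold change was -0.26 (SE 0.12, adjusted p = 0.14 by edgeR), and without DMSO replicate 1 it was -0.33 (adjusted p = 0.018). In that fit more genes passed, 22.5% higher and 23.5% lower of 13566 tested, and of the 11 rows 9 were higher and 1 lower.

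Some members had opposite highest and lowest libraries within 1 treatment, and others followed neither pattern. Only these ends were opposite, and the SFN libraries between them were not in opposite order. In SFN, HSPA1A, HSPA6 and HSPA8 were highest in replicate 2 and lowest in replicate 5, whereas HSPH1, HSPA4L and HSPA13 were lowest in replicate 2 and highest in replicate 5. The canonical transcripts of the first set are 2400, 2355 and 2264 bases long and those of the second 5244, 10608 and 3945 bases. HSPA1B, with 2517 bases, was highest in replicate 3 and lowest in replicate 5. HSPA4, with 4774 bases, was lowest in replicate 3 and highest in replicate 5, and HSPA14, with 1762 bases, was highest in replicate 1 and lowest in replicate 5. HSPA2 was highest in replicate 2 and lowest in replicate 3. Replicates 2 and 5 were also the SFN libraries with the lowest and the highest slope of log2 CPM on transcript length. In DMSO, replicate 1, with the steepest slope, had the highest HSPA1A, HSPA1B, HSPA8 and HSPA14 and the lowest HSPA4, HSPA4L, HSPA13, HSPH1 and HSPA2. HSPA2, with 2497 bases, is a short member on the low side. This slope was also added as a covariate to the edgeR fit, an analysis chosen after seeing the data. It called 24.95% of all genes higher and 25.1% lower. Each slope was taken relative to its own group's mean, so the slopes were balanced between SFN and DMSO. The covariate could therefore hardly move a fold change and mainly changed the spread within groups. The part of the slope in single results was thus not tested. In this fit the 8 members called higher had log2 fold changes from 0.54 to 6.27 and kept their calls. HSPA14 was 0.58 (adjusted p = 3.8e-04 by edgeR) and HSPA2 -0.26 (adjusted p = 0.045).

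The make-up of the chaperone counts shifted toward the inducible members. Counts of 3′ libraries were not divided by length, so shares describe the libraries and levels of different genes are not ranked. The 11 rows together took 0.473% ± 0.025 of all counts in DMSO, from 0.431% to 0.495%, and 0.944% ± 0.034 in SFN, from 0.908% to 0.979% (exact two-sided permutation p = 0.0079). Of these counts, HSPA1A and HSPA1B held 1.73% ± 0.147 in DMSO and 13.3% ± 0.598 in SFN. HSPH1 went from 9.24% ± 0.486 to 16.9% ± 1.92 and HSPA6 from 0.0121% ± 0.0034 to 0.456% ± 0.066. HSPA8 fell from 73.1% ± 2.25 to 56.9% ± 2.81 even as its own CPM rose. For these 4 shares the groups did not overlap (exact two-sided permutation p = 0.0079, adjusted p = 0.0099 over 5 shares). The HSPA4 share was 10.8% ± 1.51 in DMSO and 8.67% ± 0.967 in SFN with overlapping groups (exact two-sided permutation p = 0.040, adjusted p = 0.040), and this call was lost in 8 of the 10 analyses that left out 1 library. Without HSPA8 in the denominator the changes were 24.6 percentage points for HSPA1A and HSPA1B, 1.02 for HSPA6 and 4.74 for HSPH1 (39.1% in SFN against 34.4% in DMSO). HSPA4 then fell by 19.7 percentage points, from 39.8% ± 2.72 to 20.1% ± 1.13. The exact permutation p was 0.016 for HSPH1 and 0.0079 for the others.

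**Figure D3:**
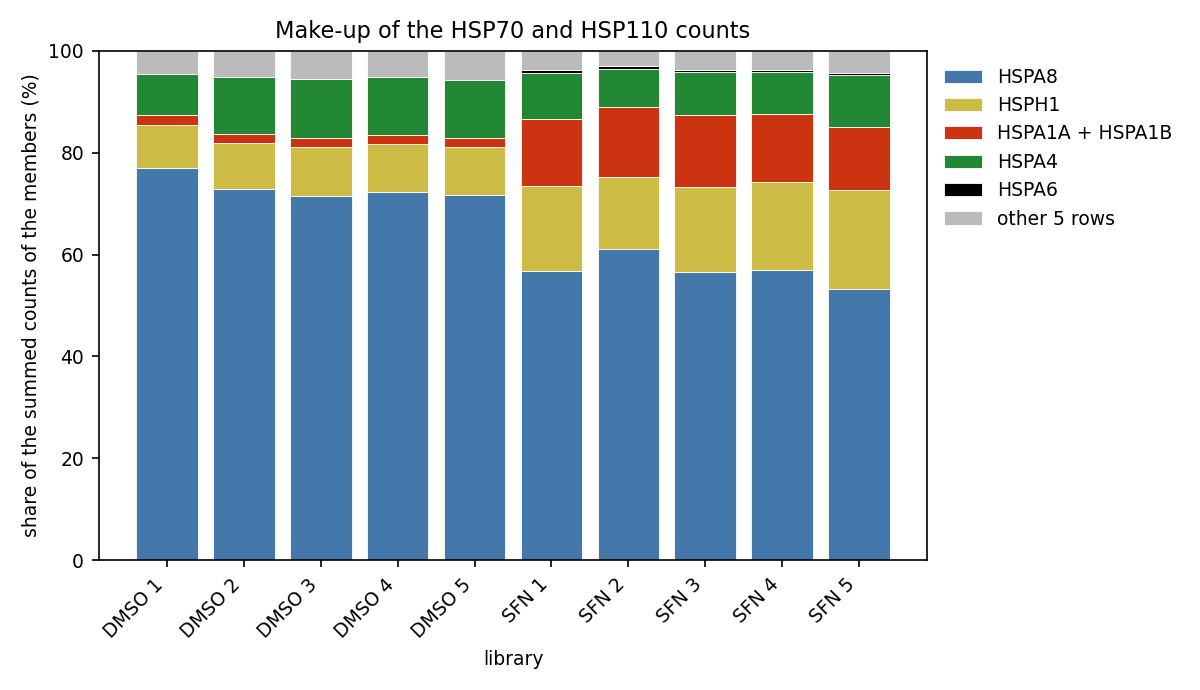
Share in percent of the summed HSP70 and HSP110 counts held by each member in each of the 10 libraries, as stacked bars from 0 to 100%. The HSPA1A and HSPA1B segment is between 1.61% and 1.97% in DMSO and between 12.5% and 14.02% in SFN, and the HSPA8 segment is smaller in every SFN library than in every DMSO library.

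**Figure D4:**
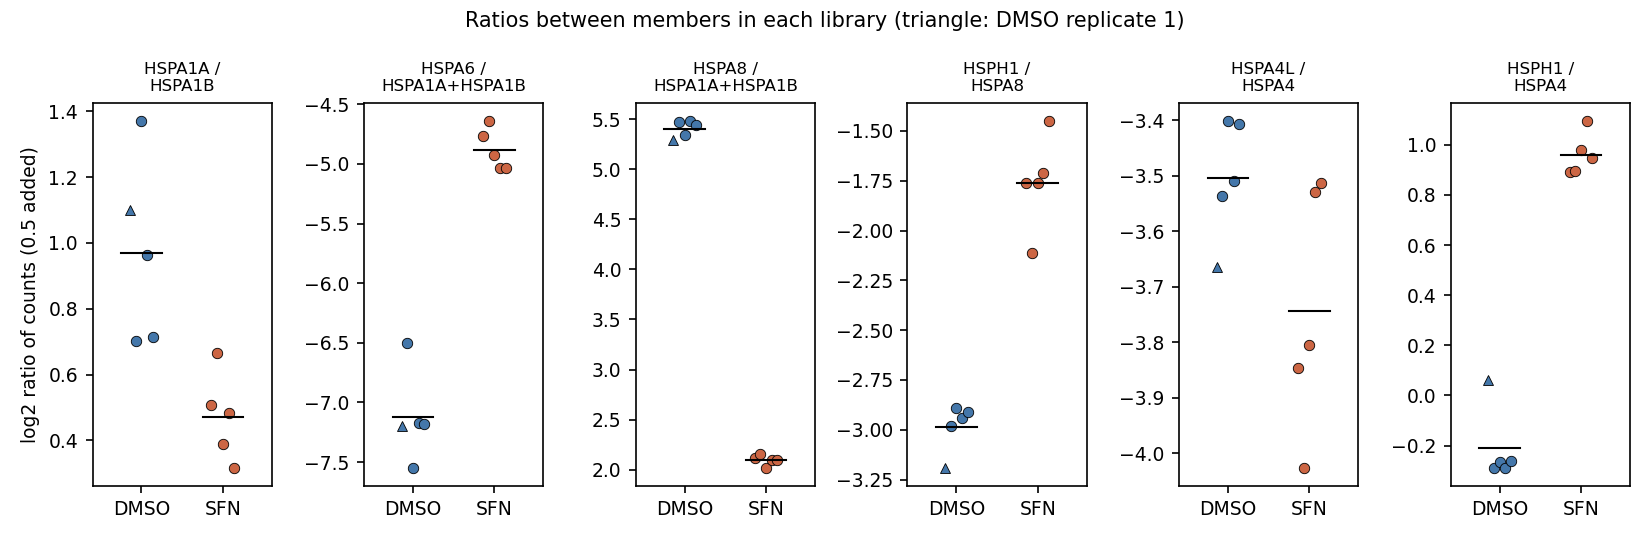
Log2 ratio of counts (0.5 added) for 6 pairs of members in each library, with a separate vertical axis per pair, DMSO in blue, SFN in orange, DMSO replicate 1 as a triangle and the mean of 5 as a bar. The groups are separate for every pair except HSPA4L to HSPA4, where they overlap.

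Genes whose pattern lay nearest to a member were found by the root mean square difference, over the 10 libraries, of log2 CPM relative to the DMSO mean, among 10139 genes. Nearest to the HSPA1A and HSPA1B sum were HERPUD1 at 0.763, TRIB3 at 0.821, the co-chaperone BAG3 at 1.08, and DDIT3 and SLC3A2 at 1.31. These are large distances, and genes under 5 CPM in DMSO were not candidates. Nearest to HSPA8 were TIMM44 at 0.074 and the HSP90 co-chaperone PTGES3 at 0.0851. PHGDH at 0.0895, IP6K2 at 0.0897 and LAMTOR3 at 0.0919 were almost as near. Nearest to HSPH1 were the J-domain protein DNAJB9 at 0.152, JMJD6 at 0.153, PPP1R15A at 0.162, DNAJB4 at 0.174 and ZNF419 at 0.175. These distances are descriptions, and the genes share libraries and treatment with the members.

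The partners of HSP70 were counted from lists written by function. Of the other HSP70 superfamily genes, 5 of 7 could be tested, and 3 were higher and 1 lower by edgeR, against 9.07% and 13.9% of all genes, with a median log2 fold change of 0.46. HSPA1L, which lies on the opposite strand with its start 259 bases from that of HSPA1A, went from 2.76 ± 0.795 to 9.28 ± 1.25 CPM (log2 fold change 1.75, adjusted p = 9.7e-05). Whether the counting used strand is not given in the sources used here. HSPA5, the HSP70 of the endoplasmic reticulum also called BiP, rose by 0.90 and the mitochondrial HSPA9 by 0.42 on the log2 scale, while HSPA12A, a distant relative, fell by 0.46 (adjusted p = 0.028 by edgeR). The call of HSPA12A was lost with the replicate block (adjusted p = 0.067), with no low-count filter (0.061) and without any of DMSO replicates 3, 4 or 5 or SFN replicates 2, 3 or 4. The call of HSPA9 was lost with quantile normalization (adjusted p = 0.086 by limma-voom) and with no low-count filter (0.057). HYOU1, a chaperone of the endoplasmic reticulum, had a log2 fold change of 0.46 (adjusted p = 0.13) with all libraries and 0.29 (adjusted p = 0.019) without DMSO replicate 1.

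Of 10 J-domain partners tested, 6 were higher and 1 lower, against the same 9.07% and 13.9%, with a median log2 fold change of 0.49. DNAJB4 rose 4.34-fold (59.6 ± 5.28 to 259 ± 43.8 CPM, adjusted p = 1.7e-06 by edgeR), DNAJA1 3.002-fold and DNAJB1, the classical heat-inducible partner, 2.41-fold. DNAJB6, DNAJC7 and DNAJB2 were higher by log2 fold changes of 0.83, 0.50 and 0.47, and DNAJB5 fell by 0.85. The call of DNAJC7 was lost without DMSO replicate 2, 4 or 5, at an adjusted p of 0.050 to 0.051 by edgeR. DNAJC2, the partner of HSPA14, had a log2 fold change of 0.09 (adjusted p = 0.89 by edgeR) with all libraries and 0.59 (adjusted p = 0.0030) without DMSO replicate 1.

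Of 6 nucleotide exchange factors outside the HSP110 group, 1 was called, against 23.0% of all genes, with a median log2 fold change of 0.10. This was BAG3, which links HSP70 to selective autophagy, and which rose 5.72-fold, from 118 ± 4.64 to 673 ± 36.7 CPM (log2 fold change 2.52, SE 0.10, adjusted p = 2.4e-08 by edgeR). Without DMSO replicate 1, where 22.5% of all genes were higher and 23.5% lower, BAG1 was also higher and BAG4 and BAG5 lower. Of 11 adaptors and client handover factors, 6 were higher, against 9.07% of all genes, with a median log2 fold change of 0.50. Without DMSO replicate 1, 9 were higher, against 22.5% of all genes. CHORDC1 rose 2.94-fold, AHSA1, the activator of the HSP90 ATPase, 2.38-fold, and STIP1, which bridges HSP70 to HSP90, 1.74-fold. PTGES3, ST13 and CDC37 had log2 fold changes of 0.69, 0.51 and 0.47. The call of CDC37 (adjusted p = 0.024 by edgeR) was lost with library size only, quantile normalization or no low-count filter and without DMSO replicate 5, SFN replicate 1 or SFN replicate 4. The HSP90 genes were not called with all libraries, and without DMSO replicate 1 HSP90AA1 had a log2 fold change of 1.05 and HSP90AB1 of 0.66 (adjusted p = 2.8e-05 and 2.1e-05 by edgeR). In DMSO replicate 1 alone HSP90AA1 was at 22764 CPM, above every SFN library. HIKESHI, the nuclear import carrier of HSP70, had a log2 fold change of 0.50 (adjusted p = 0.28 by edgeR) with all libraries and 0.86 (adjusted p = 0.0026) without DMSO replicate 1.

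None of the 5 genes tested of the heat shock factor list was called by edgeR, DESeq2 or limma-voom on quantile normalized values. They are the factors HSF1, HSF2 and HSF4 and the HSF1-binding protein HSBP1 with its relative HSBP1L1. By edgeR 0 of them had an unadjusted p under 0.05. Of all genes, edgeR called 23.0% in either direction. DESeq2 called 9.44% higher and 10.6% lower, and limma-voom on quantile normalized values 9.84% and 11.5%. Among only 5 genes, a count of 0 is not far from these shares. HSF1, known as the factor that drives the inducible members, had a log2 fold change of 0.10 (SE 0.12, adjusted p = 0.64), from 29.9 ± 4.01 to 31.9 ± 3.604 CPM, and HSF2 of -0.12 (adjusted p = 0.58). Limma-voom with sample quality weights called HSF1 (log2 fold change 0.20, adjusted p = 0.044) and HSBP1 higher, in a fit in which 29.0% of all genes were higher, and without DMSO replicate 1, where 22.5% were higher, edgeR called HSBP1 higher. These values concern mRNA and not the activity of HSF1.

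**Figure D5:**
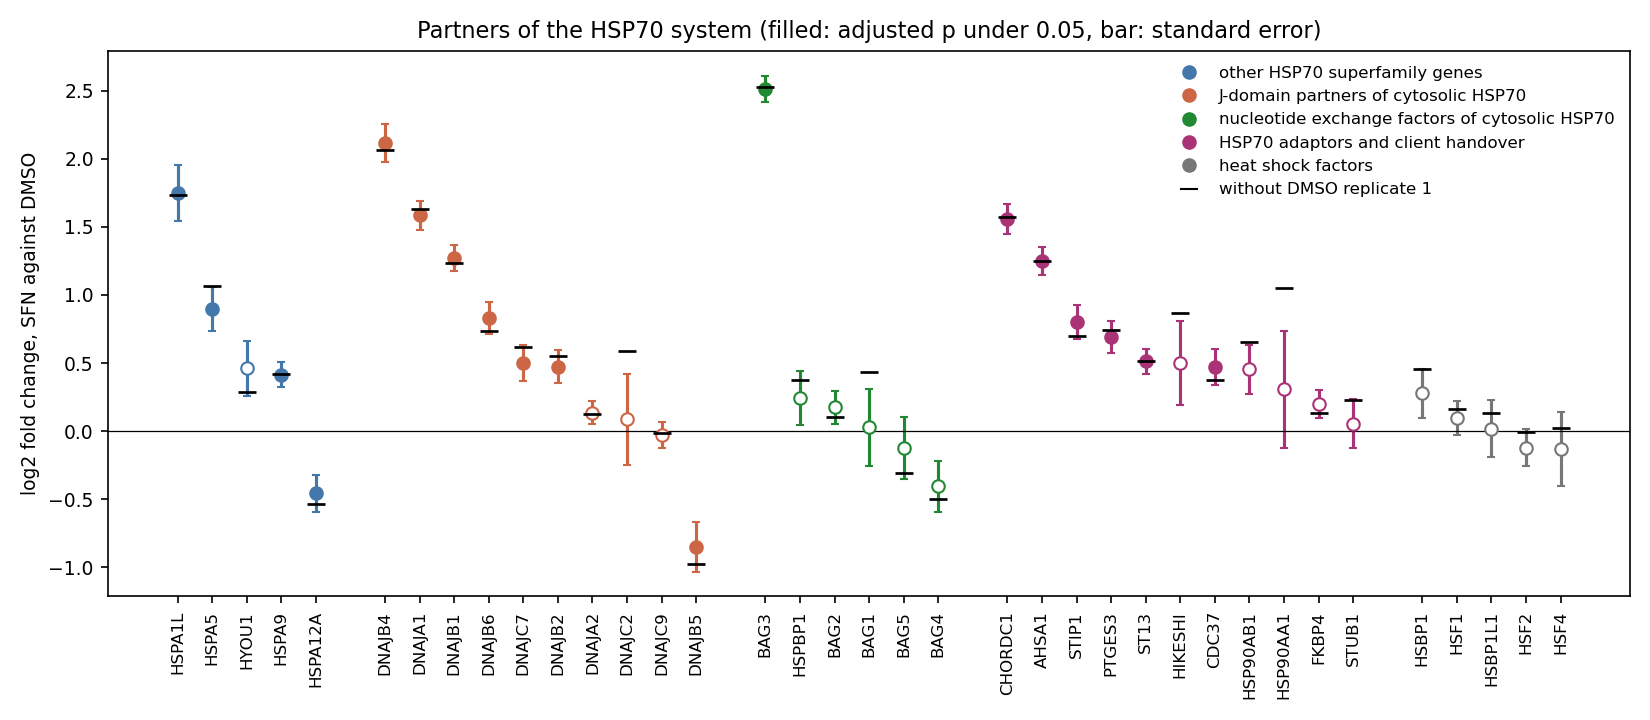
Log2 fold change of SFN against DMSO for the partner genes tested, coloured by list, with the standard error as a bar, filled points where the adjusted p by edgeR was under 0.05, and dashes for the value without DMSO replicate 1. BAG3 at 2.52 and DNAJB4 at 2.12 are the highest points of these lists, and the genes of the heat shock factor list lie between -0.13 and 0.28.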

How the data were processed

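The authors made 3′ libraries (Lexogen QuantSeq in the methods, whereas the sample labels mention only Illumina preparation) from 5 DMSO and 5 SFN samples and deposited raw counts per Ensembl gene, not normalized, with replicates kept separate. The submitters' processing notes name FastQC, STAR, featureCounts, edgeR and GRCh38 (hg38). Versions, strand settings and annotation release are not given in the sources used here. Columns without a sample numbered 0.

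The members, gene lists, pairs and alternatives were chosen with earlier results of these data known. Named genes are all members, the called genes of the fixed lists and the nearest genes by pattern with at least 5 CPM in DMSO. Genes of the lists that were not called, and HSPA7, fall outside this rule and were named after their values were seen, and the cell type markers come from lists of their own. Libraries were filtered with filterByExpr, scaled by TMM and compared with glmQLFit and glmQLFTest of edgeR 4.0.16 in R 4.3.3, with Benjamini-Hochberg adjustment over 13378 genes and a threshold of 0.05. Standard errors are the size of the log2 fold change over the square root of F. Ratios (0.5 added) and shares were compared by exact two-sided permutation. The authors' model used quantile normalized values with limma and had a repeated-measures term that is not defined, so no block was used. Alternatives used limma 3.58.1 and DESeq2 1.42.0, other scalings, no filter, a replicate block, a fold change limit of 2 and leaving out each replicate, and a length slope covariate was added after seeing the data.

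No replicates were duplicates, as chi-square per degree of freedom between replicates was 3.50 to 243. The labels do not say that replicates were separate cultures. The paper calls the replicates of all its experiments independent, but does not say what separated those used for RNA-seq. The p-values therefore measure the spread between these samples, which may be technical. Total counts of 12375860 to 20666692 set the counting error, which limits only the lowest values such as HSPA6 in DMSO. The test was tried on simulated counts, in which it recovered 97% of 4-fold and 63% of 2-fold changes among 200 changed genes, with 6.43% of its calls false. These counts were drawn for each gene separately, without an effect shared across a library such as that of DMSO replicate 1. The rates may therefore not hold for the real counts. GENCODE 44 held 28145 of 28380 identifiers, and 9 of the 10 symbols had RefSeq promoter entries, searched with Python 3.11.15 and aligned with Biopython 1.88. No protein sequence was used here.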

Additional observations from a re-analysis of the deposited data

Results flagged for a closer look

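In groups of 5, a library is listed here when its gap to the nearest other library exceeded 0.71 of the group's whole range. Chance gives about 1 in 20 such groups, or 6.1 of the 122 examined, and 25 were found, of which 22 were DMSO replicate 1. Among the members, DMSO replicate 1 was the lowest of its group for HSPA4 (gap of 0.853 of the range), HSPA4L (0.801) and HSPA13 (0.711) and the highest for HSPA14 (0.813) and the HSPA1A and HSPA1B sum (0.752). It was also the lowest for the summed share of all counts (0.713) and the HSPA4 share (0.908), and the highest for the HSPA8 share (0.765) and the HSPH1 to HSPA4 ratio (0.921).

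Among the partners, DMSO replicate 1 was the highest for HSPA5 (0.809), DNAJC2 (0.924), DNAJC7 (0.873), BAG1 (0.923), STUB1 (0.741), HSP90AA1 (0.949), HSP90AB1 (0.837), HIKESHI (0.869), HSF2 (0.738) and HSBP1 (0.721). It was the lowest for DNAJB6 (0.920), BAG5 (0.876) and STIP1 (0.883). The other 3 were SFN replicate 5, lowest for DNAJB5 (0.891) and BAG3 (0.722), and SFN replicate 2, lowest for BAG4 (0.754).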

How the results depend on the processing

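Of 373 alternative values for 23 tested results, 334 kept their direction and side of the threshold and 0 reversed. Of 280 alternative counts of called genes for 14 counts, 244 stayed within 1.5 times the count given. The cause of the rest was not tested. HSPA1A, HSPA1B, HSPA6 and HSPH1 were higher under all 20 alternatives. HSPA4L was 0.44 with library size only (adjusted p = 0.14) and 0.53 with no filter (0.057), and HSPA8 was 0.40 under limma-voom with quantile normalization (0.079). With sample quality weights HSPA2 was -0.31 (0.0072) and HSPA14 0.93 (1.7e-07), and with the length slope covariate -0.26 (0.045) and 0.58 (3.8e-04). Against a fold change of 2, HSPA8 (0.72), HSPA4 (0.77), HSPA4L (0.54) and HSPA13 (0.96) did not pass, which left 4 members higher.

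Counts of genes called by edgeR were 1214 higher and 1862 lower. DESeq2 called 1840 higher and 2074 lower of 19483 tested, or 9.44% and 10.6%. The shares by edgeR were 9.07% and 13.9% of 13378. Sample quality weights called 3874 higher and 4041 lower, the length slope covariate 3338 and 3352, and the fold change limit 153 and 205. Quality weights gave 1 member lower, 3 exchange factors higher and 2 lower, 10 adaptors higher and 2 genes of the heat shock factor list higher. The covariate gave 1 member lower, 1 exchange factor lower, 10 adaptors and 1 gene of the heat shock factor list (HSBP1) higher. The fold change limit left 1 other superfamily gene higher and 0 lower, 2 J-domain partners higher and 0 lower, and 1 adaptor higher. No filter and the replicate block gave 0 other superfamily genes lower, as HSPA12A lost its call. Scaling by library size alone moved the median of all genes to -0.11.

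Leaving out 1 library gave -0.33 to -0.21 for HSPA2, 0.43 to 0.62 for HSPA4L, 0.37 to 0.83 for HSPA14, 906 to 3058 genes higher and 1470 to 3193 lower, 0 to 1 member lower, 0 to 1 other superfamily gene lower, 1 to 2 exchange factors higher and 0 to 2 lower, 0 to 1 gene of the heat shock factor list (HSBP1) higher, -0.30 to -0.17 for the HSPA4L to HSPA4 ratio and -2.77 to -1.82 percentage points for the HSPA4 share. The highest counts over all genes, the member and exchange factors lower and HSBP1 higher came without DMSO replicate 1.

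Correlations of same-numbered deviations were 0.039, -0.27, -0.060, 0.031 and 0.48. They cannot decide whether replicate numbers paired the libraries, because the deviations also hold the slope on transcript length of each library. The paper's model had a repeated-measures term. With the numbers as a replicate block, a sign-flip test cannot go below p = 0.0625, which was its exact p for the changes of the log2 ratios of HSPA1A to HSPA1B (-0.50), HSPA6 to the sum (2.24), HSPA8 to the sum (-3.31), HSPH1 to HSPA8 (1.23) and HSPH1 to HSPA4 (1.17), and for the changes in share, in percentage points, of the sum (11.6), HSPA6 (0.444), HSPA8 (-16.1) and HSPH1 (7.65). For the HSPA4 share (-2.10) the exact p was 0.125.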
